A study of Bos taurus with 24 samples.

Results

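The mitotic apparatus was followed through 60 of its genes in bovine muscle satellite cells grown with or without fibroblasts. The 60 genes were taken by symbol from a list of mitotic kinases and cyclins, spindle, kinetochore, checkpoint and cytokinesis genes; each matched 1 row of the deposited count table, so 60 of the 60 listed genes were found among 11937 genes. Their coding loci lay on 28 chromosomes or scaffolds, with at most 5 of them on any one.

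A cell divides its copied chromosomes by condensing them, attaching each centromere through a kinetochore to the microtubules of the spindle, and holding the sister chromatids together until every kinetochore is attached. Cyclin B bound to CDK1 drives entry into mitosis, the Polo-like and Aurora kinases organise the spindle, and the spindle checkpoint restrains CDC20 until attachment is complete. Most of these genes are transcribed late in the cell cycle under B-MYB (MYBL2), the MuvB complex and FOXM1, and in the muscle lineage their transcripts are known to decline as myoblasts leave the cell cycle before fusing.

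Satellite cells are the stem cells of skeletal muscle; here they were wild-type bovine cells from the longissimus dorsi, a pool of 3 lines at passage 3. Coculture wells shared their medium with fibroblasts at passage 10 across a membrane with 0.4 µm pores, and monoculture wells held satellite cells without fibroblasts. Whether an empty insert stood in the monoculture wells is not stated in the labels. Both cell types were seeded at 8000 cells/cm2 in high-glucose medium with 20% fetal bovine serum, and on day 5 differentiation was started with 10% horse serum. RNA was sequenced from 24 libraries in 6 groups of 4: coculture and monoculture in proliferation, at 24 h and at 72 h of differentiation. Nothing in the labels says that replicates came from separate cultures; p-values therefore rest on the spread between these libraries, which may be technical.

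Library totals ran from 11.54 to 34.96 M counts, and the fewest counts of any of the 60 genes in any library was 9. Levels are counts scaled to a common library total with TMM factors (CPM), and a gene was called higher or lower at a Benjamini-Hochberg adjusted p under 0.05 over all 11937 genes in edgeR's quasi-likelihood test; errors on log2 fold changes are standard errors (SE) and those on levels are SDs, n = 4. Of 19 markers fixed for satellite and myogenic cells, 5 had a row under their symbol (PAX3, DES, ITGA7, NCAM1 and MET), and PAX7, MYF5, MYOD1 and MYOG were not among them. Of 17 fibroblast markers, 11 had a row (TCF21, DPT, PI16, DPP4, CD34 and PDPN did not), and their summed level in the monoculture proliferation libraries was already 52979 to 57111 CPM. Most of that sum was collagen: COL1A1, COL1A2 and COL3A1 averaged 17862, 20303 and 14848 CPM there. These collagens also made up most of every fibroblast marker sum given below, so the sums say little about the other fibroblast markers. All coculture libraries of 72 h and replicates 3 and 4 of coculture at 24 h carried lane 7 in their library names and all others lane 6. Other codes in the library names changed together with the lane, so lane, those codes and culture cannot be told apart at 72 h. Nuclear ribosomal RNA was above 1.5% of counts in 4 libraries: replicate 2 of coculture at 24 h (4.07%), replicate 1 of coculture at 72 h (2.24%), and replicates 3 (2.14%) and 4 (1.76%) of monoculture at 72 h.

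At 72 h of differentiation the mitotic genes stood higher in coculture almost without exception. Of the 60 genes, 59 were called higher in coculture and 0 lower; over all genes the shares called were 25.1% higher and 25.4% lower. The median log2 fold change of the 60 was 1.09, against -0.0014 over all genes, and 35 of them were called at least 2-fold higher, a size reached by 1.68% of all genes. For 59 genes every coculture library lay above every monoculture library, which held for 21.1% of all genes. The summed level of the 60 genes was 1123 to 1274 CPM in the coculture libraries and 565 to 670.2 CPM in the monoculture libraries. In bulk RNA, a larger share of dividing cells and more of these transcripts per dividing cell cannot be told apart.

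**Figure D1:**
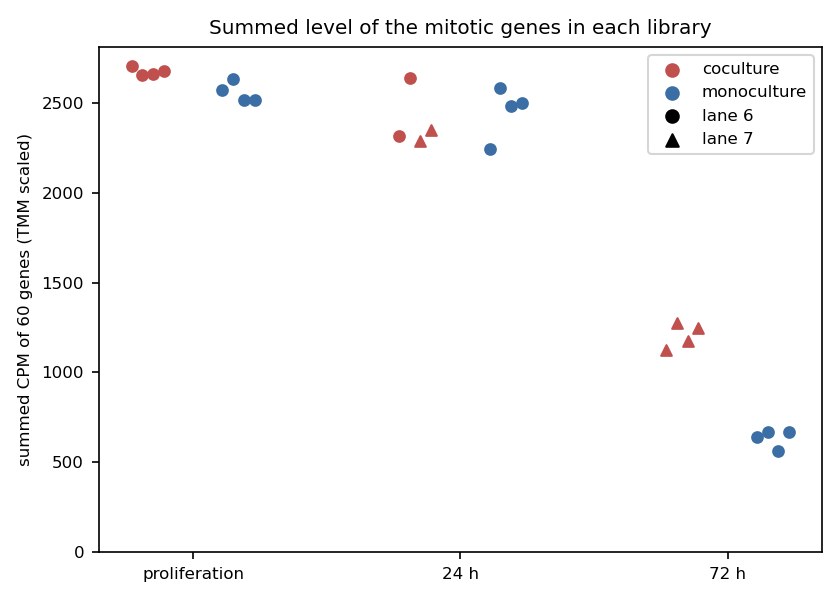
Summed level of the 60 genes (y axis, CPM with TMM scaling) in each of the 24 libraries at proliferation, 24 h and 72 h (x axis), with coculture left of monoculture; each point is a library, circles in lane 6 and triangles in lane 7. At 72 h the coculture libraries (1123 to 1274 CPM) lie above the monoculture libraries (565 to 670.2 CPM), while at 24 h the groups overlap.

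Among the regulators of mitotic entry, CDK1, the catalytic kinase (chromosome 28, 16488287 to 16502608 in the deposited annotation, for which no build is named), was at 9.72, 9.16, 9.09 and 8.87 CPM in the coculture libraries, against 3.92, 4.74, 4.31 and 4.36 CPM in the monoculture libraries. Its partner CCNB1, cyclin B1, was at 18.9, 20.1, 19.3 and 22.7 CPM in coculture and 7.30, 9.93, 7.73 and 9.38 CPM in monoculture. Neither gene overlapped between the cultures, with log2 fold changes of 1.09 ± 0.11 for CDK1 and 1.25 ± 0.094 for CCNB1 (edgeR adjusted p = 1.03e-09 and 2.80e-12). CCNB1 and CCNF, a cyclin that serves as a ubiquitin ligase adaptor, had the largest rises of the 7 cyclin and CDK genes (1.25 and 1.13), all of which were called higher. Both transcription factors of the set rose: FOXM1, a forkhead activator of G2 and M genes, was at 5.98, 8.23, 5.53 and 6.59 CPM in coculture and 3.53, 3.84, 2.32 and 2.51 CPM in monoculture (1.08 ± 0.14, adjusted p = 1.46e-07), and MYBL2 rose by 0.99 ± 0.082 (adjusted p = 1.97e-11).

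The 3 mitotic kinases and the 4 chromosomal passenger genes were all called higher, and included the 3 smallest called differences. PLK1, which acts in centrosome maturation and at kinetochores, was at 13.98, 15.4, 13.2 and 14.3 CPM in coculture, against 9.67, 10.5, 8.18 and 8.79 CPM in monoculture (0.61 ± 0.090, adjusted p = 1.55e-06). AURKB, the kinase of the passenger complex that corrects faulty attachments, was at 9.36, 10.6, 10.1 and 10.7 CPM in coculture and 7.25, 6.37, 7.15 and 7.68 CPM in monoculture (0.52 ± 0.084, adjusted p = 5.47e-06). The lowest coculture value of each still lay above the highest monoculture value. AURKA, the centrosomal Aurora kinase, and PLK4, which licenses centriole duplication, rose by 0.81 and 0.68. Within the passenger complex CDCA8 (borealin) and BIRC5 (survivin) rose by 1.25 and 1.08, whereas INCENP, its scaffold, rose by 0.39, the smallest called difference of the 60, a gene singled out after its values were seen.

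Of the 5 checkpoint genes 4 rose. BUB1, a kinase recruited to unattached kinetochores, was at 10.4, 13.1, 12.6 and 13.2 CPM in coculture and 6.29, 4.00, 4.51 and 4.51 CPM in monoculture (1.34 ± 0.12, adjusted p = 4.88e-11), and BUB1B, the BUBR1 subunit of the checkpoint complex, rose by 1.22 ± 0.10. BUB3, the partner that docks both BUB proteins (chromosome 26, 42948619 to 43027123), was the 1 gene not called: it was at 54.4, 57.5, 54.5 and 53.4 CPM in coculture and 49.7, 51.5, 56.4 and 61.4 CPM in monoculture, with overlapping libraries and a log2 fold change of 0.0097 ± 0.052 (adjusted p = 0.894). With scaling by library size alone BUB3 was called higher, where 75.3% of all called genes were higher. MAD2L1, the MAD2 protein that closes on CDC20, was called at 0.69 ± 0.27, but lost the call when replicate 1, 2 or 4 of monoculture or replicate 2, 3 or 4 of coculture at 72 h was left out.

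The 4 genes of anaphase onset all rose. CDC20, the activator of the anaphase-promoting complex (chromosome 3, 102655155 to 102659042), was at 12.7, 16.6, 12.8 and 15.6 CPM in coculture, against 7.11, 5.30, 5.73 and 6.21 CPM in monoculture, a difference of 1.24 ± 0.11 (adjusted p = 1.35e-10) with no overlap. PTTG1, securin, which holds separase inactive, had a log2 fold change of 1.52 ± 0.13 (6.60 ± 0.608 CPM in coculture and 2.26 ± 0.394 CPM in monoculture), and was the second largest of all 60 genes. The 8 centromere and kinetochore genes rose too, led by the kinetochore motor CENPE (1.36) and the NDC80 complex subunit SPC25 (1.33). NDC80 itself, the microtubule-binding subunit, was at 6.40, 8.23, 7.75 and 7.21 CPM in coculture and 3.29, 2.99, 2.45 and 3.47 CPM in monoculture (1.27 ± 0.12, adjusted p = 4.68e-10).

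The 10 spindle genes ranged in log2 fold change from 0.63 for TPX2, a microtubule nucleation factor, to 1.25 for DLGAP5 (HURP), a stabiliser of kinetochore fibres, followed by KIF2C, a microtubule depolymerase (1.23). Among the 10 midzone and cytokinesis genes SHCBP1, a midbody protein, and KIF20A, a kinesin of the central spindle, rose most (1.46 ± 0.13 and 1.38 ± 0.076). The chromosome genes held the largest difference of the set. TOP2A, the topoisomerase that untangles sister chromatids (chromosome 19, 40626894 to 40653419), was at 44.1, 50.8, 51.8 and 51.7 CPM in coculture, against 15.3, 19.3, 12.6 and 17.1 CPM in monoculture (1.63 ± 0.081, adjusted p = 2.84e-16). ERCC6L (PICH), a translocase on stretched anaphase DNA, rose by 1.44 ± 0.19. MKI67, the Ki-67 coat protein of mitotic chromosomes (chromosome 26, 47507868 to 47537900), was at 50.00, 58.02, 54.1 and 57.04 CPM in coculture and 22.7, 24.9, 16.9 and 20.8 CPM in monoculture, also without overlap.

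**Figure D2:**
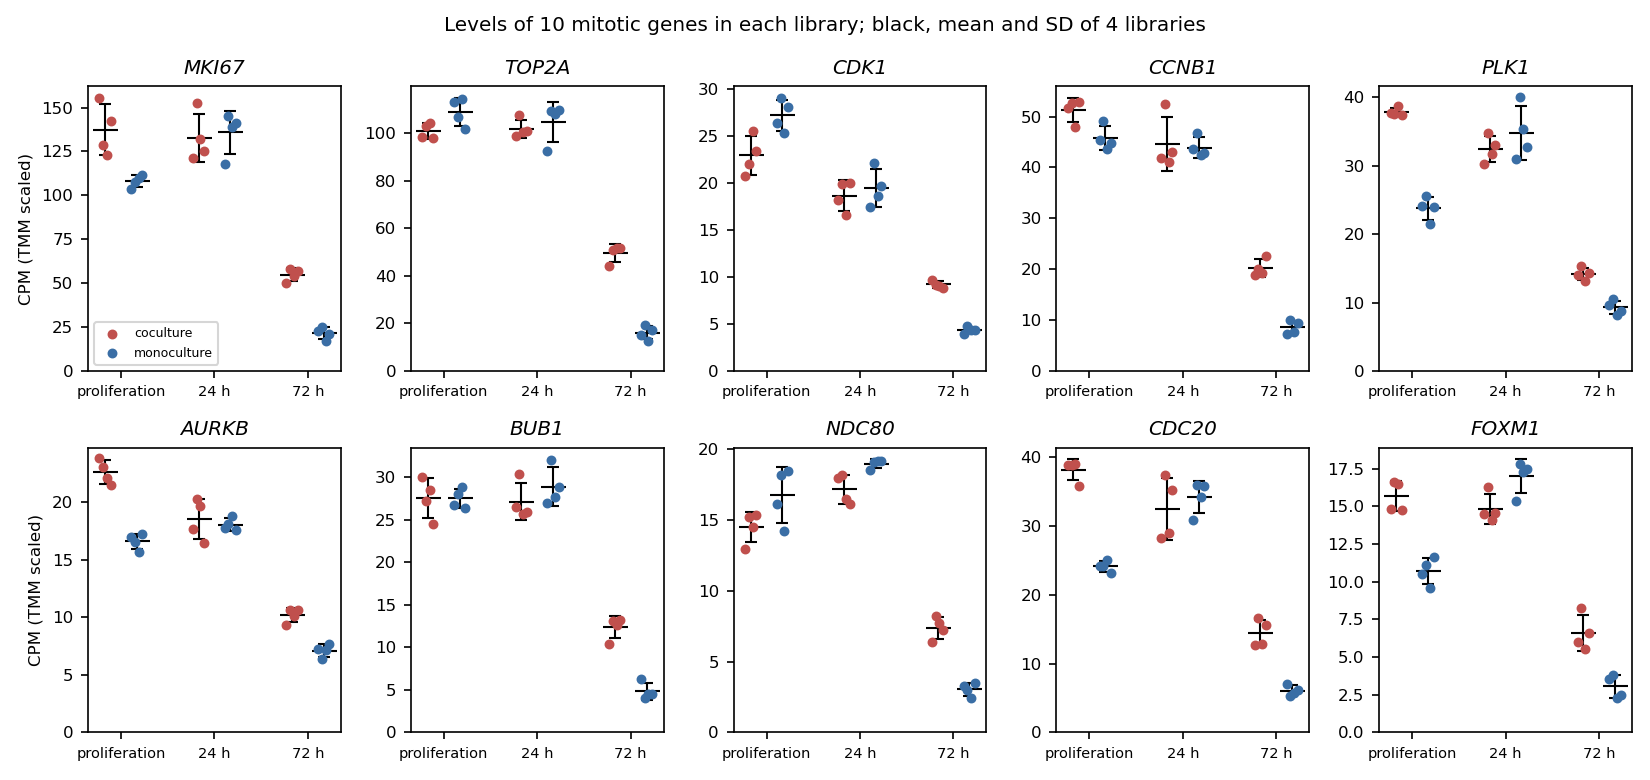
Levels (y axis, CPM with TMM scaling) of MKI67, TOP2A, CDK1, CCNB1, PLK1, AURKB, BUB1, NDC80, CDC20 and FOXM1 in each library at proliferation, 24 h and 72 h (x axis), coculture left of monoculture; points are libraries, black marks the mean and SD of 4 libraries. In all 10 panels the 72 h coculture libraries lie above the 72 h monoculture libraries, and both lie below the libraries of proliferation.

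Other measures also differed at 72 h, and their part in the rise was not tested. The 11 measured fibroblast markers summed to 113797 to 117771 CPM in coculture and 120046 to 137975 CPM in monoculture. Of them 3 were called higher, led by the mesenchymal receptor PDGFRA (1.38) and the proteoglycan DCN (0.26), and 3 lower, led by MFAP5 (-0.42) and COL1A1 (-0.21). Both counts are near the shares of all genes called, 25.1% higher and 25.4% lower. The 5 measured satellite and myogenic markers summed to 194 to 214 CPM in coculture and 362 to 397 CPM in monoculture: ITGA7 and the muscle intermediate filament DES were lower (-2.01 and -0.78), NCAM1 was lower (-0.16), PAX3 was higher (0.20) and MET was not called. Without the 4 libraries richest in ribosomal RNA, 57 of the 60 genes were called higher with a median of 1.03. With lane in the model 57 were called with a median of 1.18. MAD2L1 and the spindle length kinesin KIF18A were the calls lost in both. Over all genes 5293 and 3402 were called in these fits, in the same order, against 6029 in the main fit. In the model with lane, the lane term can be estimated only from the coculture libraries of 24 h.

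Other genes of the same machinery were set beside the 60 from lists chosen with earlier results of these data known. Of 37 further kinetochore and centromere genes measured, 29 were called higher in coculture at 72 h and 2 lower, with a median log2 fold change of 0.60; the scaffold KNL1 (1.62) and the microtubule-binding SKA1 (1.29) rose most, and the centromere DNA binder CENPB (-0.18) and the dynein cofactor NDEL1 (-0.15) fell. Of 42 further mitotic genes, 39 were higher and 2 lower (median 0.83), led by LMNB1, lamin B1 (1.45), and the centrosomal kinase NEK2 (1.34); the histone H3 kinase HASPIN (-0.40) and the Aurora A cofactor BORA (-0.39) were lower. Of 34 DNA replication genes, 30 were higher and 0 lower (median 0.63), with the ribonucleotide reductase subunit RRM2 (1.39) and UHRF1, a factor of maintenance DNA methylation (1.21) highest.

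Core complexes through which the mitotic genes act were examined as well. Of the 16 subunits of the anaphase-promoting complex, the ubiquitin ligase that CDC20 activates, 2 were higher (CDC27 0.40 and ANAPC1 0.36) and 3 lower, among them ANAPC2 (-0.43) and ANAPC7 (-0.29), with a median of -0.042; both counts are below the shares of all genes called, 25.1% higher and 25.4% lower. Of 12 cohesin genes, which tie sister chromatids, 9 were higher and 0 lower (median 0.25), with the acetyltransferase ESCO2 at 1.10 and the ring subunit SMC1A at 0.65. Of 12 DREAM and MuvB genes, which hold or activate late cell cycle promoters, 3 were higher and 1 lower (median 0.098): the MuvB subunit LIN9 (0.72) and RBL1, which encodes p107 (0.42), were the largest rises and TFDP1 (-0.15) was the fall; the count of rises is near the share of all genes and that of falls below it.

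In proliferation, on the last day in growth medium, coculture split the 60 genes. In coculture 25 were called higher, or 41.7%, against 30.3% of all genes, and 13 were called lower, or 21.7%, against 28.7% of all genes. The median log2 fold change was 0.077 for the 60 and 0.0040 over all genes, and the range of the 60 was -0.39 to 0.70, so no gene differed 2-fold. The summed level was 2656 to 2702 CPM in coculture and 2512 to 2633 CPM in monoculture, and the unscaled share of counts was 0.285% in coculture and 0.286% in monoculture, on average. With scaling by library size alone the 60 genes divided into 20 higher and 20 lower, so the balance of the split moved with the scaling. Over all genes 6761 were then called, 39.5% of them higher.

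By role, all members of the transcription factor, anaphase onset and chromosomal passenger groups were called higher; with library sizes alone UBE2C and CDCA8 lost the call. Both transcription factors rose, MYBL2 by 0.70 ± 0.067 (adjusted p = 6.99e-10), the largest rise of the 60, and FOXM1 by 0.55 ± 0.098. FOXM1 was at 14.8, 16.6, 16.5 and 14.8 CPM in the coculture libraries and 10.5, 11.1, 9.60 and 11.6 CPM in the monoculture libraries, without overlap. All 4 genes of anaphase onset rose, led by CDC20 and by ESPL1, separase (0.48). CDC20 was at 38.9, 38.8, 39.1 and 35.9 CPM in coculture, against 24.2, 24.1, 25.1 and 23.1 CPM in monoculture (0.66 ± 0.080, adjusted p = 4.57e-08), the cultures not overlapping. Of the others, UBE2C, the ubiquitin-conjugating enzyme of the same ligase, and PTTG1, rose by 0.28 and 0.31.

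All 4 chromosomal passenger genes rose as well, with AURKB at 23.9, 23.1, 22.1 and 21.5 CPM in coculture and 17.01, 16.6, 15.7 and 17.2 CPM in monoculture (0.45 ± 0.066, adjusted p = 1.04e-06) and INCENP at 0.43 ± 0.064. PLK1 was at 37.8, 37.5, 38.8 and 37.5 CPM in coculture and 24.2, 25.6, 21.4 and 23.97 CPM in monoculture (0.67 ± 0.069, adjusted p = 2.71e-09). Neither kinase overlapped between the cultures. AURKA rose by 0.29, while PLK4 fell by 0.22 on the log2 scale, a call lost without replicate 1 of monoculture. MKI67 was at 155, 128, 123 and 143 CPM in coculture and 104, 108, 109.7 and 112 CPM in monoculture, again apart, and the condensin subunit NCAPH rose by 0.33 ± 0.088. Further rises were those of CCNF (0.65) and the phosphatase CDC25B, which activates CDK1 (0.40), of KIF2C (0.39), of HJURP, the chaperone that loads the centromeric histone CENPA (0.50), of the midzone bundler PRC1 (0.33) and of the kinesin KIF14 (0.26). The KIF14 call was lost with library sizes alone and without replicate 4 of coculture.

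The 13 genes that fell lay partly in the same complexes. CDK1 was at 20.8, 22.1, 25.5 and 23.4 CPM in coculture and 26.4, 29.1, 25.4 and 28.1 CPM in monoculture, and although the ranges overlapped it was called lower (-0.26 ± 0.072, adjusted p = 0.00272). Its cyclin CCNB1 went the other way, at 51.7, 52.8, 47.9 and 52.9 CPM in coculture and 45.5, 49.2, 43.6 and 44.7 CPM in monoculture (0.17 ± 0.069, adjusted p = 0.0336); that call was lost in 6 of the 8 fits that each left out 1 library of these groups. In the NDC80 complex, NDC80 was at 12.97, 15.2, 14.5 and 15.3 CPM in coculture and 16.1, 18.2, 14.2 and 18.4 CPM in monoculture (-0.20 ± 0.082, adjusted p = 0.0340, lost in 4 of 8 such fits), whereas SPC24 rose by 0.48 ± 0.067 (adjusted p = 5.04e-07), and NUF2 (-0.16) and SPC25 (-0.24) were not called. With library sizes alone NUF2 and SPC25 were called lower as well. In condensin, the ring that compacts chromosomes, SMC2, SMC4 and NCAPG were lower (-0.32, -0.28 and -0.17) and NCAPH was higher. The NCAPG call was lost without replicate 2 of monoculture or replicate 1 or 2 of coculture.

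The largest fall was that of KIF18A (-0.39 ± 0.12, adjusted p = 0.00823), followed by HMMR, a spindle pole protein and hyaluronan receptor (-0.36), and CENPE (-0.35). DLGAP5 (-0.30), the cytokinesis kinesin KIF20B (-0.29), the checkpoint kinase TTK or MPS1 (-0.27) and the contractile ring scaffold ANLN (-0.20) completed the list. The KIF18A call was lost without replicate 2 of coculture, and that of KIF20B without replicate 2 of monoculture or replicate 1 of coculture. The other 22 genes, with log2 fold changes from -0.24 to 0.17, were not called. Among them TOP2A was at 98.3, 103, 104 and 98.1 CPM in coculture and 113, 107, 114 and 102 CPM in monoculture (-0.11 ± 0.067, adjusted p = 0.160; with library sizes alone it was called lower at -0.18, adjusted p = 0.0413). BUB1 was at 29.95, 27.2, 28.5 and 24.4 CPM in coculture and 26.7, 28.02, 28.9 and 26.4 CPM in monoculture, with a difference of -0.0020 ± 0.079.

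**Figure D3:**
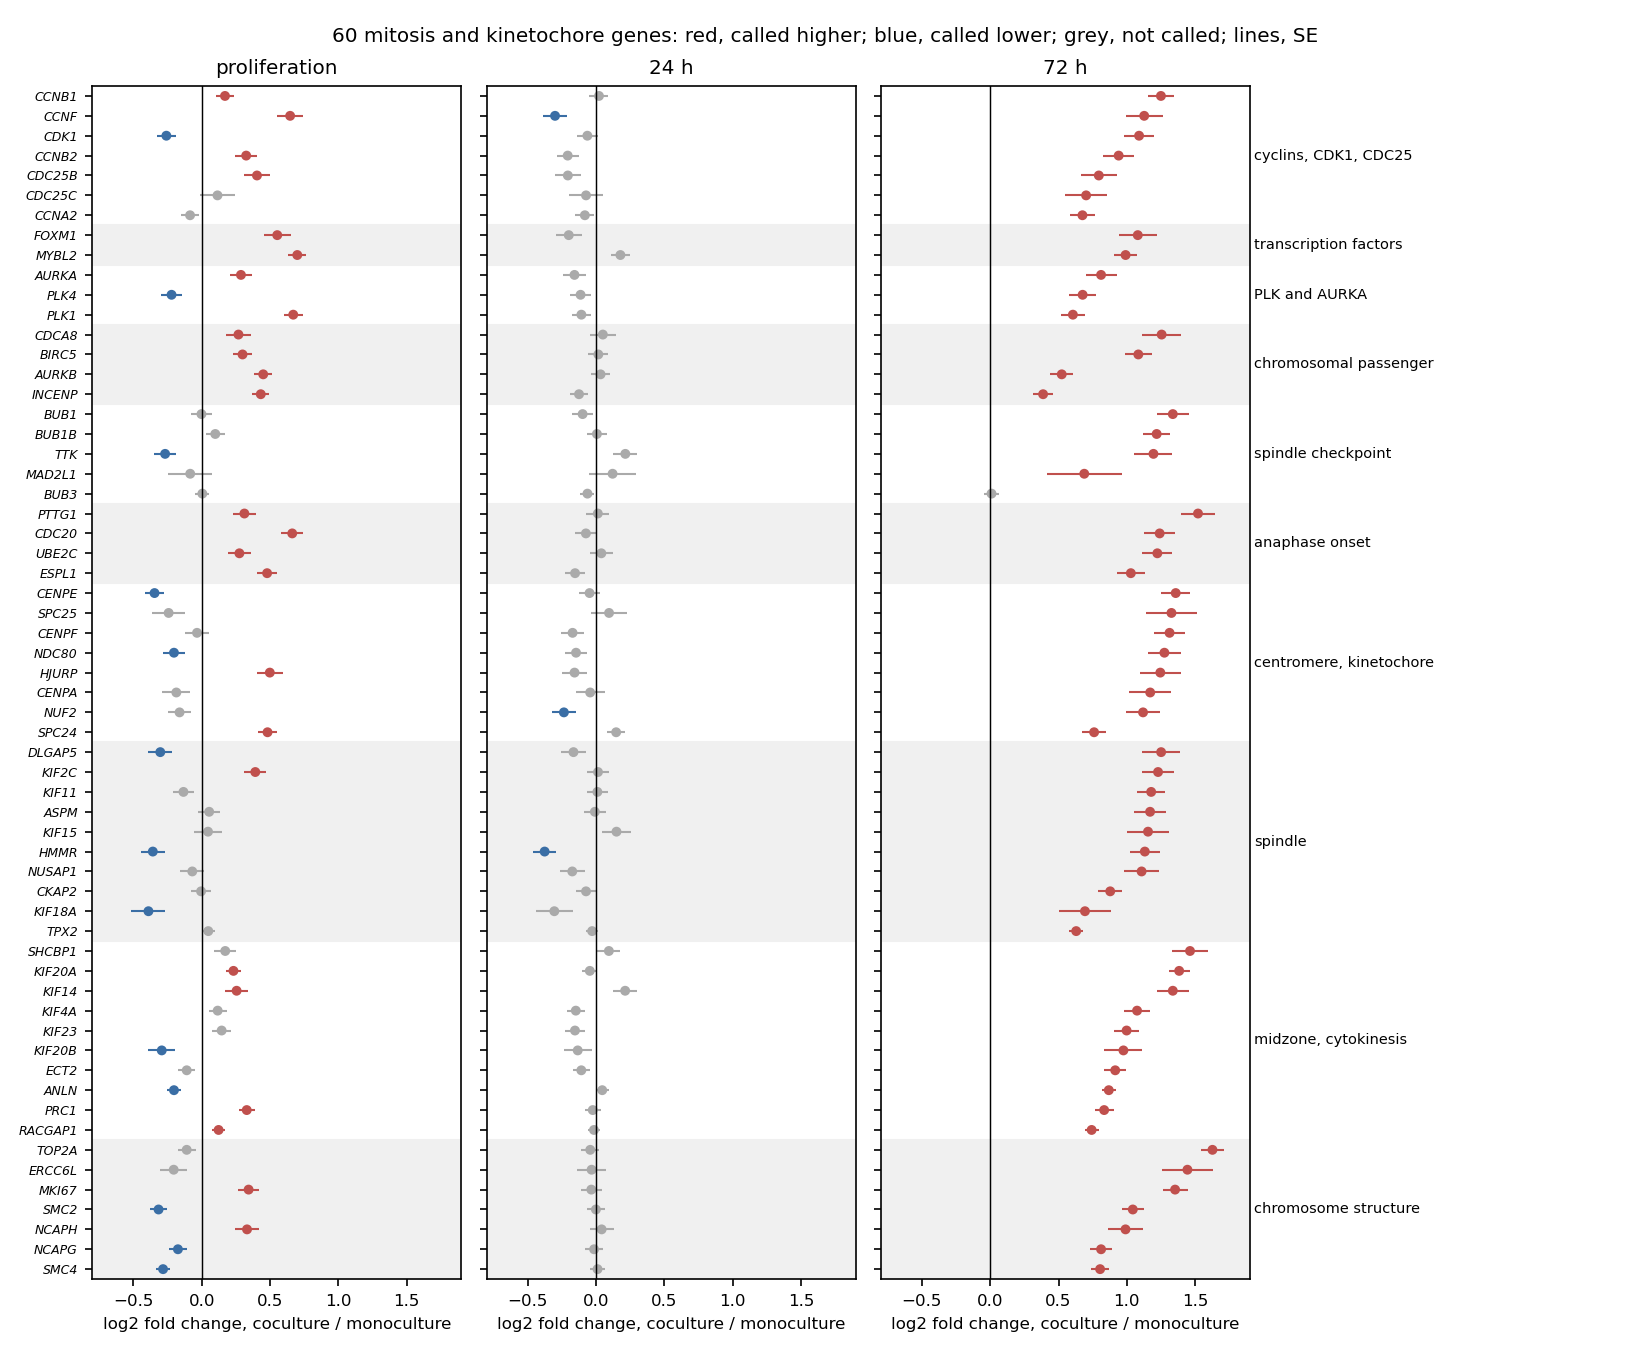
Log2 fold change of coculture over monoculture (x axis) for each of the 60 genes (rows, grouped by role) in proliferation, at 24 h and at 72 h (panels); lines are SE, and colour marks genes called higher (red), called lower (blue) and not called (grey). Calls go both ways in proliferation (25 higher, 13 lower), 3 genes are called lower at 24 h, and 59 are called higher at 72 h.

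In proliferation the direction of a gene's difference went with its length in the genome. The called-higher genes had a median genomic span of 15.1 kb, the called-lower genes 45.5 kb and the genes not called 42.6 kb; over all genes the medians were 14.7 kb, 39.8 kb and 22.6 kb. Spearman's rho between log2 fold change and span was -0.50 over the 60 genes and -0.25 over all 11937, as a description across genes that come from the same 8 libraries. At 72 h rho was 0.030 over the 60 genes and 0.24 over all genes. The part of gene length in the proliferation split was not tested.

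**Figure D4:**
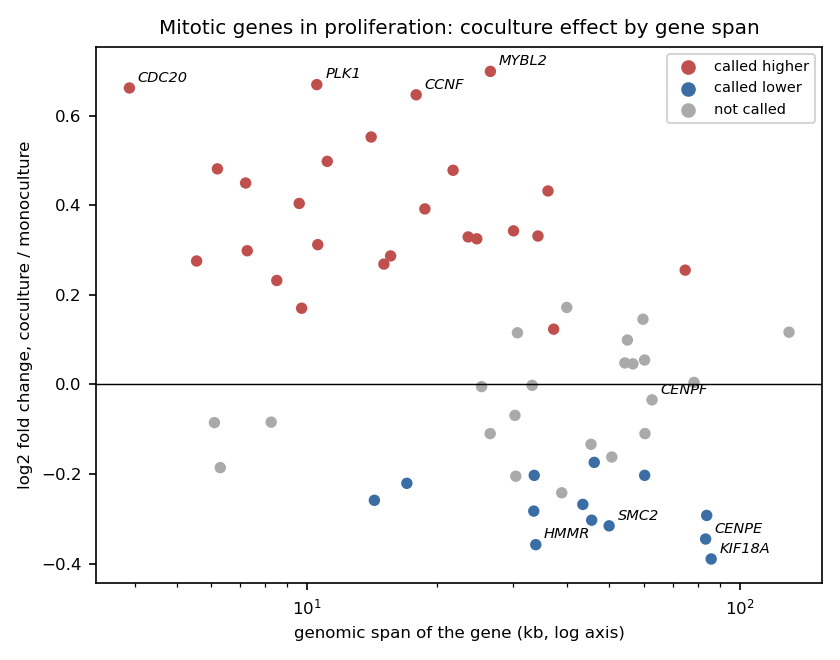
Log2 fold change of coculture over monoculture in proliferation (y axis) against genomic span (x axis, kb, log axis) for the 60 genes, coloured by call. Called-higher genes have a median span of 15.1 kb and called-lower genes one of 45.5 kb.

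Other lists are given for proliferation beside the shares of all genes called, 30.3% higher and 28.7% lower. The 34 DNA replication genes had 19 higher and 5 lower (median log2 fold change 0.29), and the 42 further mitotic genes 20 and 5. The 37 further kinetochore genes had 13 higher and 8 lower, the 16 anaphase-promoting complex subunits 5 and 6, the 12 DREAM and MuvB genes 3 and 4, and the 12 cohesin genes 1 and 10, with a cohesin median of -0.32. The counts of the kinetochore, anaphase-promoting complex and DREAM lists lie near those shares. Satellite and myogenic markers summed to 201 to 219.5 CPM in coculture and 163 to 166 CPM in monoculture, of which DES alone was at 125 ± 4.99 CPM in coculture and 72.1 ± 1.99 CPM in monoculture; of the 5 markers 2 were higher (DES and NCAM1), 1 lower (MET) and 2 not called. Fibroblast markers summed to 62923 to 64222 CPM in coculture and 52979 to 57111 CPM in monoculture; of the 11 fibroblast markers 4 were higher and 3 lower. Their part in the split was not tested.

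At 24 h of differentiation few differences were called. None of the 60 genes was called higher in coculture (0 of 60, against 11.5% of all genes) and 3 were called lower, against 12.2% of all genes: HMMR (-0.38 ± 0.086, adjusted p = 0.00169), CCNF (-0.30 ± 0.089, adjusted p = 0.0136) and NUF2 (-0.23 ± 0.085, adjusted p = 0.0441). HMMR was at 31.4, 34.7, 31.1 and 32.95 CPM in coculture and 37.3, 47.3, 41.4 and 42.4 CPM in monoculture, without overlap. At an unadjusted p under 0.05 edgeR gave 14 of the 60, or 23.3%, against 35.4% of all genes, and DESeq2 called 0 higher and 4 lower, with 23.1% of all genes called in either direction. The median log2 fold change was -0.044 for the 60 and -0.0027 over all genes, and the summed levels overlapped, at 2288 to 2637 CPM in coculture and 2242 to 2582 CPM in monoculture. The fibroblast markers summed to 86092 to 97094 CPM in coculture and 89567 to 98702 CPM in monoculture, with 3 called higher, 3 lower and 5 not called. The satellite and myogenic markers summed to 207 to 232 CPM in coculture and 288 to 308 CPM in monoculture, with 0 called higher, 3 lower and 2 not called. ITGA7 averaged 57.9 CPM in coculture and 130.7 CPM in monoculture. DES averaged 100.3 CPM in coculture and 101.2 CPM in monoculture, and PAX3 40.9 CPM in coculture and 36.8 CPM in monoculture. The part of these markers was not tested.

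The HMMR call held under every alternative run, whereas those of CCNF and NUF2 did not. Both were lost with lane in the model, within lane 6, and without replicate 2 of monoculture or replicate 3 of coculture. The NUF2 call was also lost with library sizes alone and without replicate 1 or 4 of either culture at 24 h. It was lost as well without replicate 2 of monoculture or replicate 1 of coculture in proliferation, which share the estimate of spread. The count of lower genes was 6 without replicate 1 of monoculture, where 2627 of all genes were called, and 6 without replicate 2 of coculture, where 2390 were called. It was 1 without replicate 2 of monoculture or replicate 3 of coculture, where 2540 and 2479 of all genes were called. In coculture 1 gene was called higher without replicate 2 or 3 of monoculture or replicate 1 or 3 of coculture. The count of lower genes was 10 without the 4 libraries rich in ribosomal RNA, of which replicate 2 of coculture had the highest level of its group for 53 of the 60 genes. Over all 11937 genes 2833 were called without those libraries, 48.2% of them higher, against 2836 and 48.5% with them. Within lane 6 alone, where 2 coculture libraries remained, 0 were higher and 1 lower, and with lane in the model 2 (TTK and MYBL2) were higher and 1 (HMMR) was lower. Over all genes 1746 were called within lane 6 and 1977 with lane in the model.

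None of the 10 genes followed library by library was called at 24 h. MKI67 was at 121, 152, 132 and 125 CPM in coculture and 118, 145, 139 and 141 CPM in monoculture (-0.034 ± 0.079). TOP2A was at 98.7, 107, 100.2 and 101 CPM in coculture and 92.2, 109, 108 and 109.7 CPM in monoculture (-0.042 ± 0.067). Both overlapped between the cultures. CDK1 was at 18.2, 19.9, 16.6 and 20.03 CPM in coculture and 17.4, 22.1, 18.6 and 19.7 CPM in monoculture (-0.063 ± 0.076). CCNB1 was at 41.9, 52.6, 41.02 and 42.99 CPM in coculture and 43.5, 46.8, 42.4 and 42.8 CPM in monoculture (0.022 ± 0.070). The libraries of these genes overlapped as well. PLK1 was at 30.2, 34.8, 31.8 and 33.04 CPM in coculture and 30.98, 40.1, 35.4 and 32.7 CPM in monoculture (-0.11 ± 0.068). AURKB was at 17.7, 20.3, 19.7 and 16.5 CPM in coculture and 17.8, 18.1, 18.8 and 17.6 CPM in monoculture (0.034 ± 0.067). BUB1 was at 26.4, 30.3, 25.7 and 25.9 CPM in coculture and 26.95, 32.1, 27.7 and 28.8 CPM in monoculture (-0.098 ± 0.079). These 3 overlapped too, which NDC80 did not: it was at 17.9, 18.2, 16.5 and 16.1 CPM in coculture and 18.5, 19.1, 19.2 and 19.1 CPM in monoculture, but its difference of -0.15 ± 0.080 was not called (adjusted p = 0.191). CDC20 was at 28.3, 37.4, 28.99 and 35.2 CPM in coculture and 30.8, 36.03, 34.2 and 35.8 CPM in monoculture (-0.074 ± 0.079). FOXM1 was at 14.5, 16.3, 14.1 and 14.5 CPM in coculture and 15.4, 17.8, 17.3 and 17.5 CPM in monoculture, also overlapping (-0.20 ± 0.093, adjusted p = 0.124, and called lower at -0.25 without the libraries rich in ribosomal RNA, adjusted p = 0.0391).

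Over the 3 times, 24 genes were called higher in proliferation, not called at 24 h and higher at 72 h, 20 were called at 72 h alone, and 12 were lower in proliferation, not called at 24 h and higher at 72 h. These patterns were not counted over all genes, so no share stands beside them. Taken singly, 30.3% of all genes were called higher and 28.7% lower in proliferation. At 24 h 9101 of the 11937 were not called, and at 72 h 25.1% were called higher. CCNF was higher, lower and higher, HMMR lower, lower and higher, and NUF2 not called, lower and higher. BUB3 was not called at any of the times, though with library sizes alone it was called higher at 72 h. Whether the coculture effect itself differed between times was tested as an interaction. From proliferation to 24 h it changed for 26 genes: it was lower at 24 h for 21, against 26.2% of all genes, and higher for 5, against 24.3%. CCNF (-0.95 ± 0.13), PLK1 (-0.78 ± 0.097) and FOXM1 (-0.75 ± 0.14) had the largest downward changes, and TTK (0.48 ± 0.12), SMC2 (0.32 ± 0.089) and CENPE (0.30 ± 0.11) the largest upward ones.

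From 24 h to 72 h the coculture effect became higher for 58 genes, against 12% of all genes, and lower for 0, with a median change of 1.15. TOP2A (1.67 ± 0.11, adjusted p = 1.07e-12), HMMR (1.51 ± 0.14) and PTTG1 (1.51 ± 0.15) changed most, and BUB3 and MAD2L1 were the 2 genes not called. BUB3 was called higher with library sizes alone and without the libraries rich in ribosomal RNA. Between 72 h and proliferation the coculture effect was higher at 72 h for 56 genes, against 31.3% of all genes, with TOP2A (1.74), CENPE (1.70) and ERCC6L (1.65) first. The count was 51 without the libraries rich in ribosomal RNA, where CDC25B, CDC25C, SPC24, FOXM1 and MYBL2 lost the call, 53 with lane in the model, and 52 to 56 with each library left out. Over all genes 7172 were called without the libraries rich in ribosomal RNA and 5931 with lane in the model, against 7437 in the main fit. The 4 of the 60 genes not called in the main fit were PLK1 (-0.065 ± 0.11), AURKB (0.074 ± 0.11), INCENP (-0.045 ± 0.095) and BUB3 (0.0051 ± 0.073). With library sizes alone AURKB and BUB3 were called higher, where 71.3% of all called genes were higher.

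Within each culture the genes fell between 24 h and 72 h. In monoculture all 60 genes were called lower at 72 h than at 24 h, against 26.6% of all genes, and 0 higher, against 27.3%, with a median log2 fold change of -2.16. HJURP (-2.90 ± 0.13), KIF20A (-2.84 ± 0.070) and ERCC6L (-2.82 ± 0.16) fell most. BUB3 fell least (-0.14), with overlapping libraries. Its call was lost without replicate 2 or 4 of monoculture at 24 h or replicate 1 or 2 of monoculture at 72 h. In coculture 59 were called lower, against 23.8% of all genes, with a median of -1.04; HJURP (-1.50 ± 0.11), TTK (-1.44 ± 0.10) and ASPM, a spindle pole protein (-1.43 ± 0.091), fell most, and BUB3 was not called (-0.065 ± 0.052). The level left at 72 h, as a percentage of the 24 h level, had a median of 48.8% in coculture and 22.3% in monoculture. It was lowest for HJURP in both cultures (35.4% in coculture and 13.4% in monoculture) and highest for BUB3 (95.7% in coculture and 91.3% in monoculture). For MKI67 it was 41.3% in coculture and 15.7% in monoculture, and for TOP2A 48.7% in coculture and 15.3% in monoculture.

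**Figure D5:**
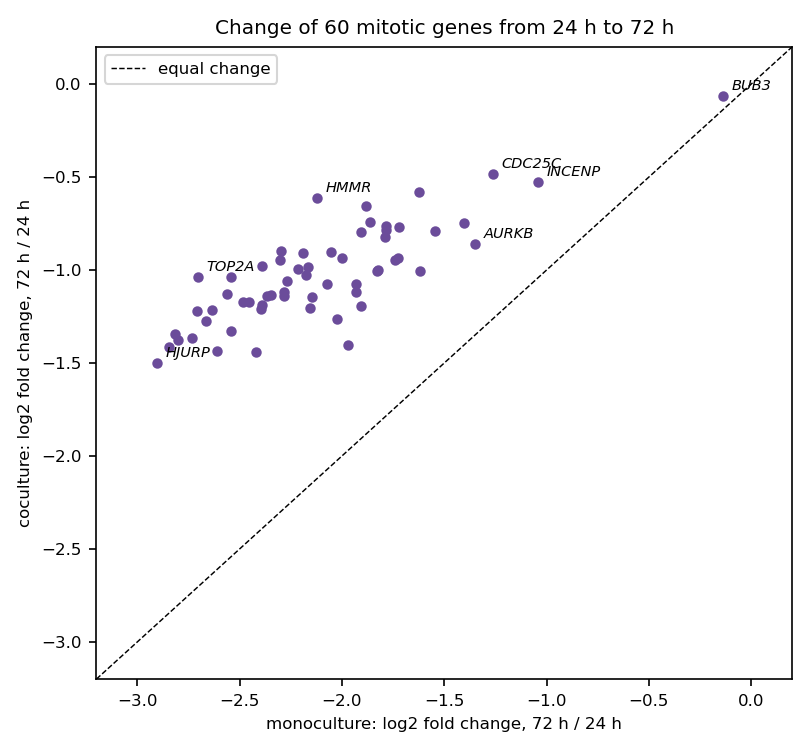
Log2 fold change of 72 h over 24 h in coculture (y axis) against that in monoculture (x axis) for the 60 genes; each point is a gene and the diagonal marks equal change. The points lie above the diagonal, with medians of -1.04 in coculture and -2.16 in monoculture.

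In the first 24 h after the medium change calls went both ways in monoculture and almost all downward in coculture. In monoculture 14, or 23.3%, were called higher at 24 h than in proliferation, against 34.3% of all genes, and 18, or 30%, lower, against 34.2%. Both shares lay below those of all genes, which also went both ways. CCNF (0.93 ± 0.094), FOXM1 (0.67 ± 0.097) and ESPL1 (0.63 ± 0.074) rose most, and SMC2 (-0.66 ± 0.063), TTK (-0.65 ± 0.084) and SPC25 (-0.65 ± 0.13) fell most. In coculture 1 was higher (NDC80, 0.24 ± 0.082), against 21% of all genes, and 31 were lower, against 22.2%, with a median of -0.19 for the 60 and -0.0077 over all genes; KIF18A (-0.46 ± 0.13), MYBL2 (-0.43 ± 0.066) and ERCC6L (-0.41 ± 0.10) fell most. The NDC80 call was lost without replicate 1 of coculture in proliferation and without replicate 1 or 2 of coculture at 24 h. With lane in the model the lower genes in coculture numbered 13, with a median of the 60 of -0.14; the genes called among all 11937 then numbered 3814, against 5159 without it. With library sizes alone the counts were 8 higher and 33 lower in monoculture and 0 higher and 44 lower in coculture. Over all 11937 genes 8271 were then called in monoculture, 29.5% of them higher, and 6013 in coculture, 21.7% of them higher. Much of the downward shift under that scaling was thus shared by all genes. Comparisons that start from proliferation in monoculture share their 4 proliferation libraries with the coculture comparison of that stage, so these are not independent; for CCNF, FOXM1 and ESPL1 that comparison gave 0.65, 0.55 and 0.48, and for SMC2, TTK and SPC25 -0.32, -0.27 and -0.24.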

How the data were processed

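RNA from 24 labelled libraries of bovine satellite cells was analysed from the deposited counts, which are whole numbers per gene and may be rounded RSEM estimates. FastQC, STAR, RSEM and DESeq2 are named, without versions, in the submitters' processing notes; per the labels' protocols, 400 ng of total RNA entered each Vazyme VAHTS library; no genome build is named in them. Of 36 count columns, 12 match no label and stayed out of every step. Per the file headers, the authors also deposited, for each time, log2 fold changes, mean values and p-values of coculture against monoculture, which served only for the comparison below. The table lists 11937 genes, each with at least 6 counts in every library, and 893 have no symbol, so a gene without a row may be unnamed or low; nothing was inferred from absence.

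Counts were fitted in R 4.3.3 with edgeR 4.0.16 (limma 3.58.1) in 1 model of 6 group means with TMM scaling and 18 residual degrees of freedom. The filterByExpr rule removed 0 genes. Contrasts were tested with the quasi-likelihood F test and adjusted by Benjamini-Hochberg over all genes; SE is the absolute log2 fold change divided by the root of F. The procedure was tested on simulated data. By the authors' deposited tables, of the 60 genes 27 were higher and 13 lower in proliferation, 0 and 2 at 24 h, and 58 and 0 at 72 h, and the calls were the same as here for 56, 59 and 59 genes. The shares of all genes called in the deposited tables were not counted.

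The 60 genes, their roles and all lists were chosen with earlier results of these data known. MKI67, TOP2A, CDK1, CCNB1, PLK1, AURKB, BUB1, NDC80, CDC20 and FOXM1 were described whatever they did. Otherwise the 2 called genes with the largest rise and fall per role were named, all genes called against the commoner direction, genes not called where at most 12, the 3 largest called changes for interactions and times, and, for other lists, the 2 largest in each direction at 72 h. Alternatives were other scalings, a mean of at least 5 CPM, lane, replicate block, ribosomal RNA, DESeq2 1.42.0 and each library left out. Promoter and protein sequences were not analysed here.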

Additional observations from a re-analysis of the deposited data

Results flagged for a closer look

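Within groups of 4 libraries, 6 of 60 examined gene and group combinations held a library set apart from the other 3 (Dixon's test), where chance flags about 1 in 20. TOP2A was at 44.1 CPM in replicate 1 of coculture at 72 h, against 50.8 to 51.8 CPM in the others, and at 92.2 CPM in replicate 1 of monoculture at 24 h, against 108 to 109.7 CPM. In replicate 2 of coculture at 24 h CCNB1 was at 52.6 CPM (41.0 to 43.0 CPM in the others) and BUB1 at 30.3 CPM (25.7 to 26.4 CPM). CDC20 was at 35.9 CPM in replicate 4 of coculture in proliferation (38.8 to 39.1 CPM), and NDC80 at 18.5 CPM in replicate 1 of monoculture at 24 h (19.1 to 19.2 CPM). Of these libraries, replicate 1 of coculture at 72 h and replicate 2 of coculture at 24 h are among the 4 with over 1.5% ribosomal RNA.

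The coculture effect differed between times by the interaction test for 26 of the 60 genes between 24 h and proliferation, for 58 between 72 h and 24 h, and for 56 between 72 h and proliferation. Over all 11937 genes the same tests called 6026, 2826 and 7437, in the same order. Of the 26, 21 were lower at 24 h, against 26.2% of all genes, and 5 were higher, against 24.3%. All 58 and all 56 were higher at 72 h, against 12% and 31.3% of all genes. At that time 35 genes were called at least 2-fold higher in coculture, against 1.68% of all genes.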

How the results depend on the processing

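The 72 h result kept its direction throughout: 57 to 60 of the genes tested were called higher under the other scalings, filters, lane, replicate block, ribosomal RNA and DESeq2 settings, and 58 to 59 with each library left out. Over all genes the calls at 72 h ran from 3402 with lane in the model to 6277 with library sizes alone. Scaling by library size alone moved the median of all genes, relative to TMM, by -0.069 in proliferation, 0.13 at 72 h, 0.20 in the change from proliferation to 72 h, 0.13 in that from 24 h, -0.19 and -0.13 in monoculture (24 h over proliferation and 72 h over 24 h) and -0.12 in coculture at 24 h over proliferation. It gave 20 higher and 20 lower in proliferation, 8 and 33 in monoculture at 24 h over proliferation, and 0 and 44 in coculture. Of all called genes, 75.3% were then higher at 72 h (49.7% with TMM) and 39.5% in proliferation (51.3% with TMM). For 24 h over proliferation the same share was 29.5% in monoculture (50% with TMM) and 21.7% in coculture (48.5% with TMM). At 24 h the higher and lower counts were 2 and 1 with lane in the model, 0 and 1 in lane 6 alone and 0 and 10 without the ribosomal RNA libraries. Over all genes 1977, 1746 and 2833 were called in those settings, in the same order. Lane in the model also gave 13 lower genes in coculture at 24 h over proliferation. The cause was not tested. Leaving out each library gave 0 to 1 higher and 1 to 6 lower at 24 h, 23 to 25 higher and 10 to 13 lower in proliferation, and 0 to 1 higher and 21 to 36 lower in coculture at 24 h over proliferation.

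The directions of genes near 0 that were not called turned. With each library left out, the log2 fold change ran from -0.044 to 0.048 for BUB1 in proliferation and, at 24 h, from -0.11 to 0.0062 for MKI67, from -0.11 to 0.012 for CDK1, from -0.066 to 0.060 for CCNB1 and from -0.014 to 0.091 for AURKB. MKI67 at 24 h was at 0.011 with lane in the model and 0.0088 in lane 6 alone, and without the ribosomal RNA libraries CCNB1 was at -0.066 and AURKB at -0.014.

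The replicate numbers did not pair the samples: correlations of same-numbered libraries' deviations ran from -0.14 to 0.12, 1 of 60 was over 0.1, and 3 of 24 libraries correlated best with their own number. With the replicate block the calls were 25 higher and 13 lower in proliferation, 2 and 4 at 24 h, and 58 and 0 at 72 h. The fewest counts of any gene of the set, 9, were those of MAD2L1 in a monoculture library of 72 h, which limits its call there.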

Other observations

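Some libraries were high or low for most of the 60 genes at once. Replicate 2 of coculture at 24 h was highest of its group for 53 genes, replicate 1 of monoculture at 24 h lowest for 46, replicate 3 of monoculture at 72 h lowest for 44 and replicate 1 of coculture at 72 h lowest for 32. The median coefficient of variation of the 60 genes over 4 libraries was 4.89% in coculture and 5.47% in monoculture in proliferation, and 9.10% in coculture and 14.7% in monoculture at 72 h.

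The DNA replication genes summed to 1074 to 1132 CPM in coculture and 863 to 893 CPM in monoculture in proliferation, 765 to 887 CPM in coculture and 685 to 811 CPM in monoculture at 24 h, and 554 to 603 CPM in coculture and 349.8 to 383 CPM in monoculture at 72 h. The cultures overlapped at 24 h and not at the other times, and at 72 h both lay below proliferation.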
